A study of Mus musculus with 21 samples.

Results

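This account describes chromatin accessibility around 10 genes of the p53 stress pathway in mouse skeletal muscle after a single exhaustive run: the transcription factors Trp53, Trp63 and Trp73, the p53 inhibitor Mdm2, the cell cycle and stress genes Cdkn1a, Gadd45a, Gadd45g and Btg2, and the sestrins Sesn1 and Sesn2. On GRCm39, each region took the name of the coding gene whose transcription start lay closest, which gave 50 regions for the 10 genes, out of 41411 regions that were listed as changed in any comparison with sedentary muscle. These 10 genes were chosen by their accessibility changes in these same comparisons. All values at their regions are therefore given as a description, and no test was run on them.

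ATAC-seq, in which a transposase inserts adapters into accessible DNA, was performed on myonuclei of quadriceps muscle from wildtype male adult C57/Bl6 mice. Myonuclei, the nuclei of the multinucleated muscle fibers, were enriched with an antibody against PCM1, which marks their nuclear surface. The 21 samples formed 7 groups of 3. Sedentary mice were the baseline control. The methods describe treadmill acclimatization before the performance tests and do not say whether sedentary mice had it. Untrained mice were collected 0, 6 or 72 h after the run. Trained mice had 12 weeks of voluntary wheel running before a run under the same protocol and were collected at those times. Speed rose in steps until exhaustion, and the paper reports that trained mice outperformed untrained mice. The amount of running could therefore differ between the states, and its part in their differences was not tested. All exercised groups were compared with the same sedentary mice. No trained group at rest was part of the design, so in trained mice the effect of 12 weeks of running and that of the final run cannot be told apart.

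The deposited tables held 1 mean per group, called a concentration, which is the group's mean normalised reads in a region on a log2 scale. They held only regions under a false discovery rate of 0.05 against sedentary muscle, and none for untrained muscle at 72 h, so 5 comparisons could be described. The change of a region is its exercised minus its sedentary concentration, on the log2 scale. A positive change is called a gain of accessibility and a negative change a loss. A region absent from a table has no value there, which does not show that it stayed the same. Values of single samples were not part of the tables, so no spread between samples and no sequencing depth stands behind the levels given here. The sedentary concentration of a region was the same number in each table that listed it (largest spread 0.0), so the levels of all groups can be set side by side. To set the labelled cell type beside marker genes, 7 of 9 muscle fiber marker genes had a listed region within 1 kb of a start site, with a median sedentary concentration of 14.3 (7.67 to 15.9). Of 4 endothelial and 3 epithelial marker genes, 0 had such a region, but 3 endothelial markers and 1 epithelial marker had a listed region farther away, with sedentary concentrations up to 11.5 and 11.7. Myh11 of smooth muscle (9.14), Dcn of fibro-adipogenic cells (8.30), Cd68 of immune cells (8.24) and Pax7 of satellite cells (8.49) had one, and all 4 fibro-adipogenic markers had a listed region at some distance (up to 11.1). Because the tables hold changed regions only, a marker without a listed promoter says nothing about purity. The paper reports that reads formed no peaks at marker genes of mononucleated cells in its myonuclear fractions. Its text does not name those markers, so they may differ from the ones used here. The part of any other cells in the changes below was not tested.

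The p53 protein is a transcription factor that is held low by Mdm2, a ubiquitin ligase that marks it for degradation, and is stabilised by DNA damage, oxidative stress and energy shortage. It binds sites made of a pair of decamers and induces genes that arrest the cell cycle, repair DNA, drive apoptosis or adjust metabolism. Its relatives p63 and p73 bind similar sites, and each has a full-length form with a transactivation domain and a shorter form, made from an internal start site, that lacks it. Muscle fibers do not divide, and several of these targets are better known in muscle for other roles, such as Gadd45a in fiber atrophy and the sestrins in restraining the growth kinase mTORC1.

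The sequences that the results refer back to are shown first, all on the plus strand of GRCm39 and read 5′ to 3′. The first is the stretch of the Trp63 promoter region that precedes the start site of the full-length form, at chr16:25502249-25502512. It is shown because accessibility of this region moved in opposite directions in untrained and trained muscle at 0 h. No copy of the AP-1 motif TGANTCA, of the cAMP response element TGACGTCA or of the E-box CANNTG was found in these 264 bases, so none of its letters are in capitals.
Trp63 promoter: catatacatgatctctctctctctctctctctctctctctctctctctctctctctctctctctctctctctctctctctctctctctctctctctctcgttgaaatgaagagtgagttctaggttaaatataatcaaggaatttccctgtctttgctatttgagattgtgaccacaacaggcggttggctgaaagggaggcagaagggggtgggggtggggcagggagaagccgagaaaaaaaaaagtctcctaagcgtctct

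The next 3 sequences hold the only copies of the cAMP response element, the site of CREB factors, in the 50 regions, with the element in capitals. They are shown because each lies in a region with a gain in the untrained 0 h group. They are an intron of Trp63 (chr16:25542041-25542108), a site far downstream of Gadd45g (chr13:52127665-52127732) and a stretch that begins 179 bp upstream of an annotated start of Btg2 (chr1:134007037-134007074).
Trp63 intron: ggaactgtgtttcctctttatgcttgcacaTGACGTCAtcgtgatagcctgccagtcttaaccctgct
Gadd45g downstream: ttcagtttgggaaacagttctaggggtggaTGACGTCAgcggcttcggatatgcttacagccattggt
Btg2 upstream: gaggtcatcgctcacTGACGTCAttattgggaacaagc

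A second site downstream of Gadd45g (chr13:52124242-52124395) held 3 copies of TGANTCA, the site of the AP-1 factors Fos and Jun, 2 of them next to each other. These are in capitals, and the site is shown because it gained accessibility at 0 h and 6 h.
Gadd45g AP-1: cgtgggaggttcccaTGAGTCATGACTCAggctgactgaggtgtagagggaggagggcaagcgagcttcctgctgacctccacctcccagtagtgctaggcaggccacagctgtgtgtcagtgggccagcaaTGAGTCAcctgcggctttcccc

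Of 3 matches to the p53 response element with 1 mismatch to the consensus, 2 are shown, with both decamers in capitals. The other one, with the shortest gap between the decamers (1 bp), lies in UTR sequence of the upstream Btg2 promoter region and is not printed. Those shown were in a region upstream of Trp63 (chr16:25355299-25355360) and in the wide region over Btg2 (chr1:134001127-134001184).
Trp63 upstream: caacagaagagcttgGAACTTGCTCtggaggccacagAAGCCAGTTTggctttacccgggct
Btg2 p53 element: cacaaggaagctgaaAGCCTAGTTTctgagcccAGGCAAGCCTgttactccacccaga

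Right after the run, untrained muscle listed 30 of the 50 regions, 17 with a gain and 13 with a loss. Over all 41411 regions, 51.1% were listed in this comparison, and of those listed 15.5% had a gain, against 56.7% of the regions of the 10 genes. Trained muscle at 0 h listed 32 of the 50, with 9 gains and 23 losses (28.1% gains), where 82.3% of all regions were listed and 13.1% of these were gains. At 6 h, untrained muscle listed 14 regions, 7 in each direction (50.0% gains), beside 20.2% listed and 49.5% gains over all regions. Trained muscle at 6 h listed 12, with 2 gains (16.7%), beside 28.4% and 10.7%. At 72 h in trained muscle 7 regions were listed, all with a loss, where 6.34% of all regions were listed and 1.03% of these were gains. The genes were picked from these very changes, so nothing is read from the shares of gains beside the background.

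**Figure D1:**
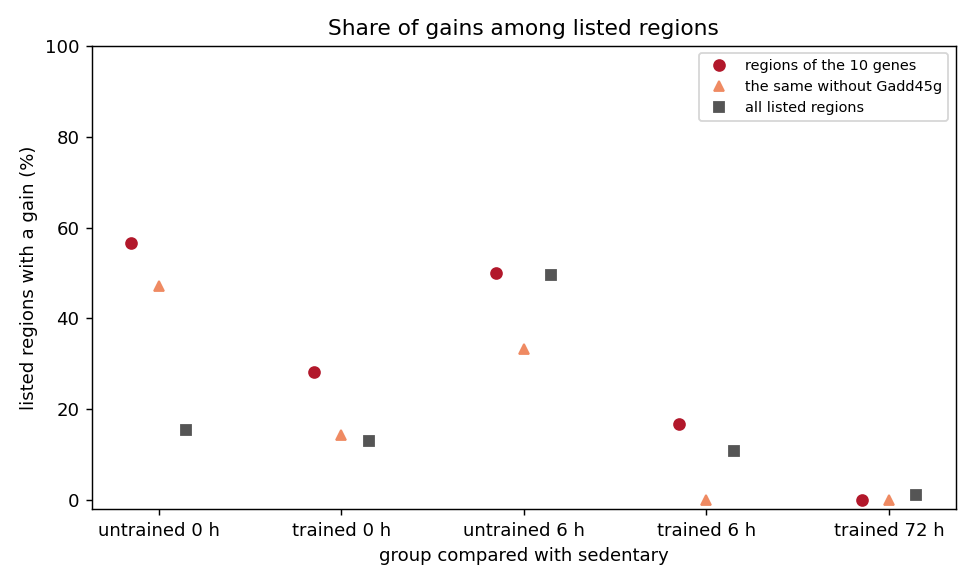
Share of listed regions with a gain (percent, y axis) in the 5 comparisons with sedentary muscle (x axis), for the regions of the 10 genes (circles), the same without Gadd45g (triangles) and all listed regions (squares). The share for the 10 genes ran from 56.7% in untrained muscle at 0 h to 0% in trained muscle at 72 h.

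The median change over the listed regions of the 10 genes was 0.66 in untrained muscle at 0 h, beside -0.84 over all regions. It was -0.83 in trained muscle at 0 h (all regions -0.86), -0.0037 in untrained muscle at 6 h (-0.55), -0.89 in trained muscle at 6 h (-0.81) and -0.81 in trained muscle at 72 h (-0.84). The median of -0.0037 is a midpoint between the smallest gain, 0.62, and the smallest loss, -0.63. No listed region had a change between these values there, so it does not describe a typical region. The median of 0.66 in untrained muscle at 0 h likewise lies among the smallest gains and mainly shows that gains were more frequent. In that comparison the median gain was 0.995 and the median loss -0.913, beside 0.986 and -0.901 over all regions. Gadd45g alone held 19 of the 50 regions. Without it the gains were 8 of 17 listed regions in untrained muscle at 0 h (47.1%), with a median change of -0.64, and 3 of 21 in trained muscle at 0 h (14.3%). They were 2 of 6 in untrained muscle at 6 h (33.3%), 0 of 6 in trained muscle at 6 h and 0 of 4 in trained muscle at 72 h. The median of -0.64 is the smallest loss of its set, so it shows only that losses were then more frequent. Counted by gene, 5 of the 10 had at least 1 gain and 5 at least 1 loss in untrained muscle at 0 h, and 3 had a gain and 9 a loss in trained muscle at 0 h. Over the 12012 genes named for a listed region, 16.2% had a gain and 58.2% a loss in untrained muscle at 0 h, and 21.5% and 90.3% in trained muscle at 0 h. A gene with many regions, such as Gadd45g, is more likely to be counted.

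**Figure D2:**
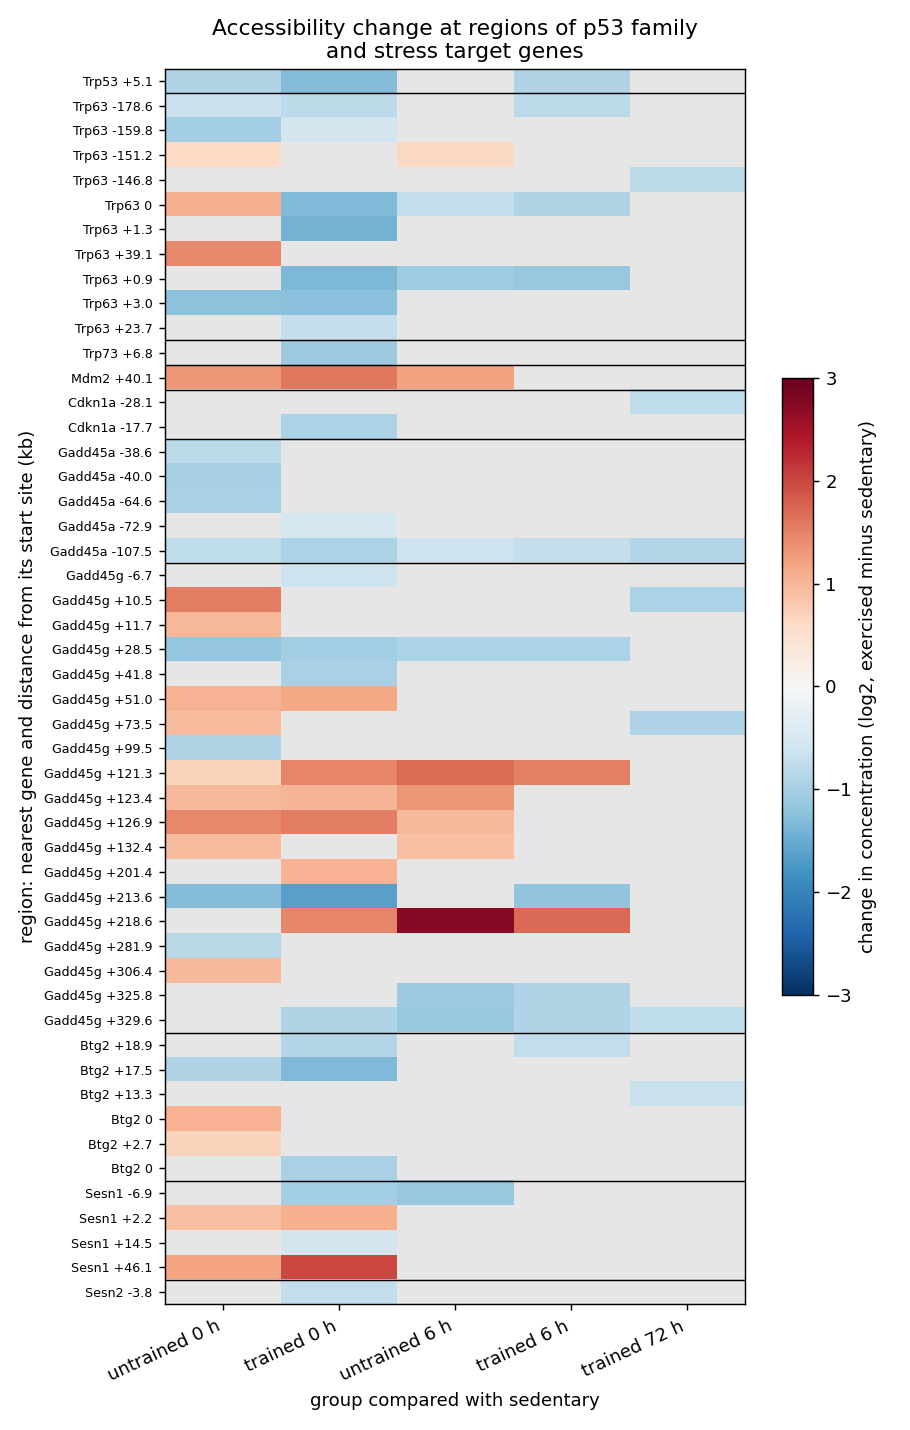
Change in concentration (log2, exercised minus sedentary, color) at the 50 regions (rows, named by the nearest gene and the distance from its nearest start site in kb, positive downstream) in the 5 comparisons (columns). Grey cells are regions not listed in a comparison. Red cells (gains) are most frequent in untrained muscle at 0 h and along Gadd45g, whose region at 218630 bp had the highest value, 2.74 in untrained muscle at 6 h.

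The median distance of the 50 regions to a start site was 39532 bp, beside 14590 bp over all regions, and 16 of them (32.0%) were over 100 kb away, beside 10.8%. A further 4 (8.0%) were within 1 kb, beside 17.7% of all regions. Much of this distance came from Gadd45g, whose regions had a median of 123431 bp. Without it the median was 17651 bp, with 16.1% over 100 kb and 12.9% within 1 kb. Naming by the nearest start site does not show that a distant region acts on that gene. The regions were otherwise close to the rest in width (median 538.5 bp beside 576 bp), GC content (49.6% beside 50.5%) and sedentary concentration (8.68 beside 8.91). In untrained muscle at 0 h, the regions with a gain had a median sedentary concentration of 8.11 and those with a loss 8.96. The same order was seen over all regions, with 7.70 for gains and 8.98 for losses. The sedentary level is a term of the change, so the 2 are not independent.

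Among the transcription factors, Trp53, which encodes p53 itself, had 1 region, at its 3′ end over coding exon and UTR sequence (chr11:69482003-69483616, 5141 bp from the nearest start site). Its concentration was 11.70 in sedentary muscle, 10.79 in untrained and 10.41 in trained muscle at 0 h, and 10.80 in trained muscle at 6 h. The changes were thus losses of -0.90, -1.29 and -0.90, and the region was not listed in untrained muscle at 6 h or in trained muscle at 72 h. A further region, 3521 bp wide, covered start sites of both Trp53 and the gene Wrap53, which runs in the opposite direction and encodes a protein of the telomerase complex. It was named for Wrap53, whose start is nearer to its center, and is not among the 50. It was listed in trained muscle at 0 h alone, where its concentration was 12.08 beside 12.96 in sedentary muscle, a change of -0.88.

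Trp63, which encodes p63, a master regulator of stratified epithelia, had 10 regions, the second most of the 10 genes. The region over the start site of its full-length form (chr16:25502249-25503448) had a concentration of 10.09 in sedentary muscle. It was 11.16 in untrained muscle at 0 h but 8.76 in trained muscle at 0 h, 9.35 in untrained muscle at 6 h and 9.19 in trained muscle at 6 h. In normalised reads, the authors' group means were 1086 in sedentary muscle, 2290 in untrained and 433 in trained muscle at 0 h. Accessibility of this promoter was therefore above the sedentary level in 1 exercised group and below it in the other 3 that listed it. The changes were 1.08, -1.33, -0.74 and -0.89.

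The gap between trained and untrained muscle at 0 h was -2.40 at this promoter. Of 17265 regions listed at 0 h in both states, 37 had a gain in untrained and a loss in trained muscle, and 6 of these were within 1 kb of a start site. The Trp63 promoter ranked 2 by the size of the gap, after a region of Ssbp3 (-2.55) and before one of Foxl3 (-2.25). At 6 h the gap had narrowed to -0.15, with both groups below the sedentary level. The promoter most like it, among 124 promoters listed in the same 4 comparisons, was that of Plekhb1, a membrane protein with a pleckstrin homology domain. Its changes were 0.93, -0.84, -0.79 and -0.98, at a Euclidean distance of 0.518 over the 4 changes. The next were Mbnl1, a splicing factor (distance 1.68), and Akap9, a scaffold of the centrosome and Golgi (1.73), both of which had losses in all 4 comparisons.

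**Figure D3:**
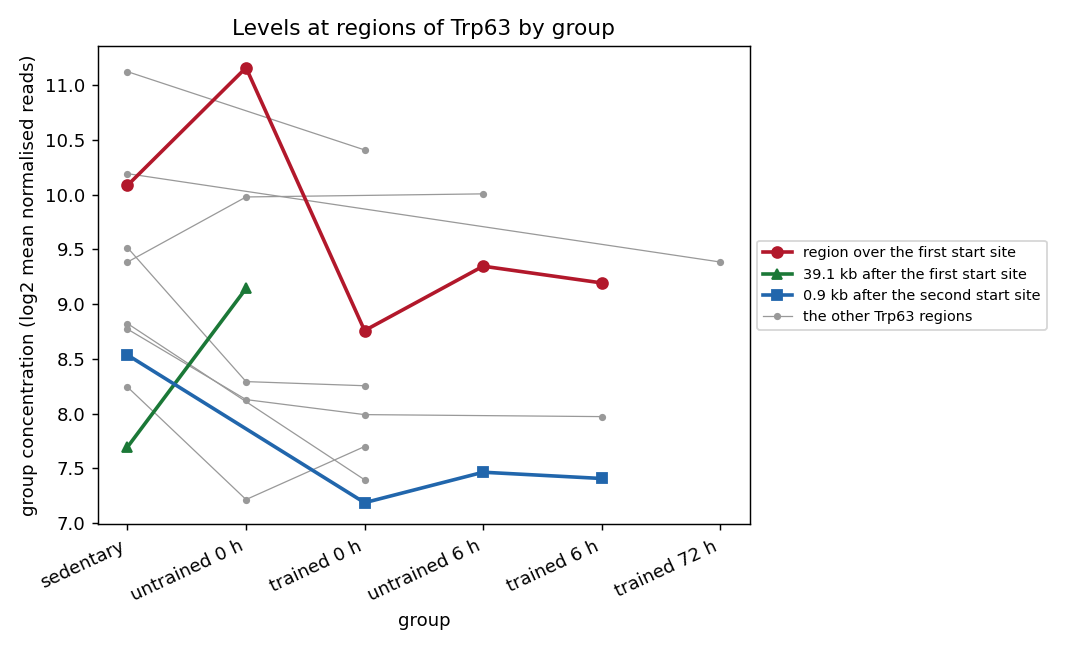
Group concentration (log2 mean normalised reads, y axis) by group (x axis) at the 10 Trp63 regions; lines join the values of 1 region over the groups that listed it and do not follow the same animals. The region over the first start site stood at 10.09 in sedentary, at 11.16 in untrained muscle at 0 h and at 8.76 in trained muscle at 0 h.

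The other Trp63 regions showed both patterns. The intron region with the cAMP response element shown above (chr16:25541580-25542369) had a concentration of 7.69 in sedentary and 9.14 in untrained muscle at 0 h, a gain of 1.45 that no other comparison listed. A region 151237 bp upstream had 9.38 in sedentary, 9.98 in untrained muscle at 0 h and 10.01 in untrained muscle at 6 h, which are gains of 0.60 and 0.62. Both of these gains were thus found in untrained muscle, and trained muscle listed no gain at any Trp63 region. The trained muscle table at 0 h held 7 losses at Trp63.

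Close to the internal start site of Trp63, which makes the shorter form, a region began 923 bp downstream (chr16:25621589-25622002). Its concentration was 8.53 in sedentary muscle, 7.18 in trained muscle at 0 h, 7.46 in untrained muscle at 6 h and 7.41 in trained muscle at 6 h, which are losses of -1.35, -1.07 and -1.13. A second intron region 3029 bp past the same start had losses of -1.22 in untrained and -1.26 in trained muscle at 0 h. The region 23695 bp past it, had a loss of -0.72 in trained muscle at 0 h. Of the rest, the region 1319 bp past the first start site had the steepest loss of this gene, -1.43 in trained muscle at 0 h. The distal regions 178606 and 159824 bp upstream had losses between -0.54 and -1.03 wherever they were listed. The region 146770 bp upstream, which holds the p53 element match printed above, was listed in trained muscle at 72 h alone, with a concentration of 9.38 beside 10.19 in sedentary muscle, a change of -0.81.

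Trp73, which encodes p73, had 1 region in an intron (chr4:154193656-154194306). It was listed in trained muscle at 0 h alone, at 7.72 beside 8.81 in sedentary muscle, a loss of -1.09. A region 1941 bp away from Trp73 was counted for its neighbor Wrap73 and had a loss of -0.91 in the same comparison.

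Mdm2 had 1 region, which gained accessibility in each comparison that listed it. It lies 40150 bp from the Mdm2 start sites, inside the carboxypeptidase gene Cpm, whose own start is 40173 bp away (chr10:117505578-117505877), so the margin that gives it to Mdm2 is small. Its concentration was 6.41 in sedentary muscle, a low level, and 7.70 in untrained muscle at 0 h, 7.98 in trained muscle at 0 h and 7.62 in untrained muscle at 6 h. The gains were 1.29, 1.58 and 1.22. No listed region was within 1 kb of an Mdm2 start site. A region 20479 bp from Mdm2, closer than the counted one, was named for its neighbor Slc35e3, whose start was nearer by 5602 bp. It had losses of -0.70 in untrained and -0.66 in trained muscle at 0 h.

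Cdkn1a encodes p21, the inhibitor of cyclin-dependent kinases and the best known p53 target. Its 2 regions both lay within the long noncoding RNA gene Trp53cor1, upstream of Cdkn1a. The nearer one, 17651 bp upstream, had 8.07 in sedentary and 7.11 in trained muscle at 0 h, a loss of -0.96. The other, 28062 bp upstream, had 8.85 in sedentary and 8.09 in trained muscle at 72 h, a loss of -0.76. The tables held no region at the Cdkn1a start sites, and neither counted region was listed in untrained muscle. The start of Srsf3 was 29366 bp from the region at 28062 bp, so the margin that gives it to Cdkn1a is small. A further region 32573 bp from Cdkn1a (chr17:29276946-29277363) was named for Srsf3, whose start was nearer by 7456 bp. It had losses of -0.81 in untrained and -0.95 in trained muscle at 0 h.

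The 2 Gadd45 genes encode small stress proteins that bind the kinase Mekk4 and PCNA. Gadd45a had 5 regions, all upstream within the long noncoding RNA gene E230016M11Rik and all with losses in each comparison that listed them. The region 107516 bp upstream (chr6:67121906-67122369) was the only one of the 50 listed in all 5 comparisons. Its concentration was 8.96 in sedentary muscle, 8.19 in untrained and 8.0 in trained muscle at 0 h, 8.33 in untrained and 8.24 in trained muscle at 6 h, and 8.09 in trained muscle at 72 h. All exercised groups were below the sedentary level, by -0.63 to -0.96. The other 4 were listed once each: 3 in untrained muscle at 0 h, with losses of -0.79, -0.99 and -0.97, and 1 in trained muscle at 0 h, with a loss of -0.53.

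Gadd45g had 19 regions, a number reached by 1.60% of all named genes. The gene lies alone in a long interval, with 18 of its regions downstream and the farthest 329552 bp away, where the next coding gene on that side is Diras2. None was within 1 kb of its start site, and the nearest was 6727 bp upstream with a loss of -0.62 in trained muscle at 0 h. Gains and losses alternated along this interval: 9 gains and 4 losses in untrained muscle at 0 h, 6 and 5 in trained muscle at 0 h, 5 and 3 in untrained muscle at 6 h, 2 and 4 in trained muscle at 6 h, and 3 losses in trained muscle at 72 h.

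**Figure D4:**
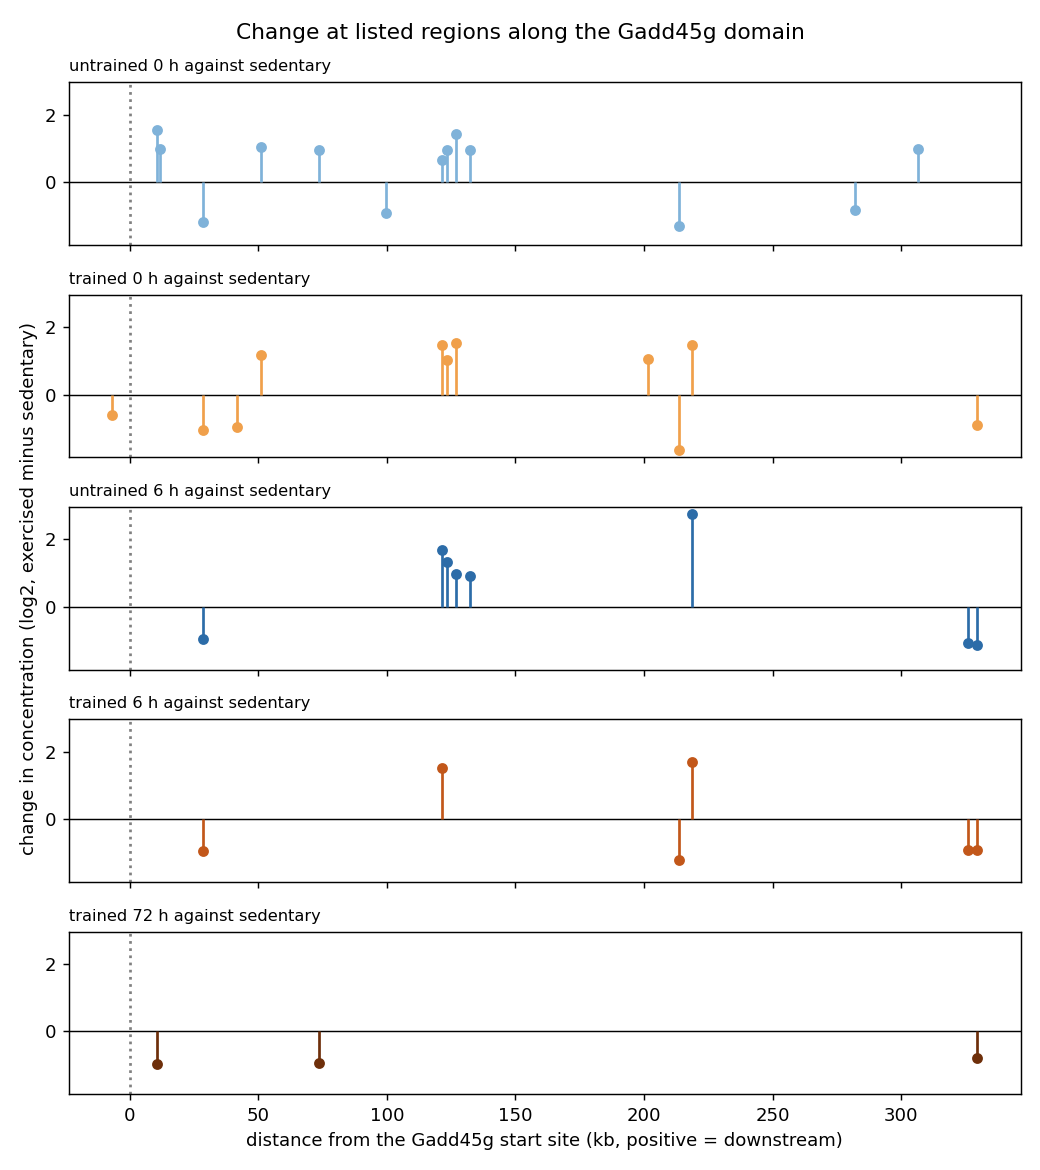
Change in concentration (log2, exercised minus sedentary, y axis) at each listed Gadd45g region by its distance from the start site (kb, x axis), with 1 panel for each comparison. Gains group around 121280 to 132415 bp and at 218630 bp, with losses at 28511, 213627 and 329552 bp.

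The largest gain of all 50 regions lay 218630 bp downstream of Gadd45g (chr13:52219344-52219811). Its concentration was 6.29 in sedentary muscle, 7.77 in trained muscle at 0 h, 9.03 in untrained muscle at 6 h and 7.99 in trained muscle at 6 h. The gains were 1.48, 2.74 and 1.70, and the level in untrained muscle at 6 h was 6.67-fold that of sedentary muscle. The neighboring region on the side of the gene, at 213627 bp, went the other way, from 8.98 in sedentary muscle to 7.67 in untrained and 7.34 in trained muscle at 0 h and 7.78 in trained muscle at 6 h. These are losses of -1.31, -1.64 and -1.20.

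A group of 4 regions between 121280 and 132415 bp downstream gained accessibility in each comparison that listed them. The first (chr13:52121994-52123307) had 8.66 in sedentary muscle, 9.32 in untrained and 10.12 in trained muscle at 0 h, and 10.33 in untrained and 10.17 in trained muscle at 6 h. Its gains were 0.66, 1.46, 1.68 and 1.51. The second, at 123431 bp, holds the 3 AP-1 matches printed above and had gains of 0.96, 1.02 and 1.33 in untrained and trained muscle at 0 h and untrained muscle at 6 h. The third, at 126861 bp, holds the cAMP response element, and its gains were 1.43, 1.53 and 0.97 in the same order. The fourth had gains of 0.94 and 0.91 in untrained muscle at 0 h and 6 h.

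Another 2 regions had opposite signs in different groups. The region at 10475 bp had a concentration of 7.86 in sedentary muscle, 9.40 in untrained muscle at 0 h and 6.91 in trained muscle at 72 h, a gain of 1.54 and a loss of -0.95. The region at 73474 bp had 8.11, 9.06 and 7.17 in the same groups, a gain of 0.95 and a loss of -0.94. The remaining regions kept 1 direction. Losses of -0.95 to -1.16 were seen at 28511 bp in both states at 0 h and 6 h, and losses of -0.77 to -1.13 at 329552 bp in trained muscle at all 3 times and in untrained muscle at 6 h.

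Btg2 encodes an antiproliferative protein that recruits the deadenylase complex to mRNAs and is an immediate early response gene. It had 6 regions, and its 2 promoter regions were listed with opposite signs in different groups. The region over its downstream start sites, 7947 bp wide, covered the whole coding part of the gene (chr1:134000243-134008189). This region had a concentration of 12.60 in sedentary and 13.64 in untrained muscle at 0 h, a gain of 1.04. The region over the upstream start sites of Btg2 (chr1:134013316-134015284) had 11.96 in sedentary and 10.97 in trained muscle at 0 h, a loss of -0.98. Neither was listed in the other state, so the difference between untrained and trained muscle at these promoters has no value. A region between them, 2671 bp from the upstream start sites, had a gain of 0.66 in untrained muscle at 0 h. The 3 regions downstream of the gene had losses, the largest at 17452 bp with -0.90 in untrained and -1.33 in trained muscle at 0 h.

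**Figure D5:**
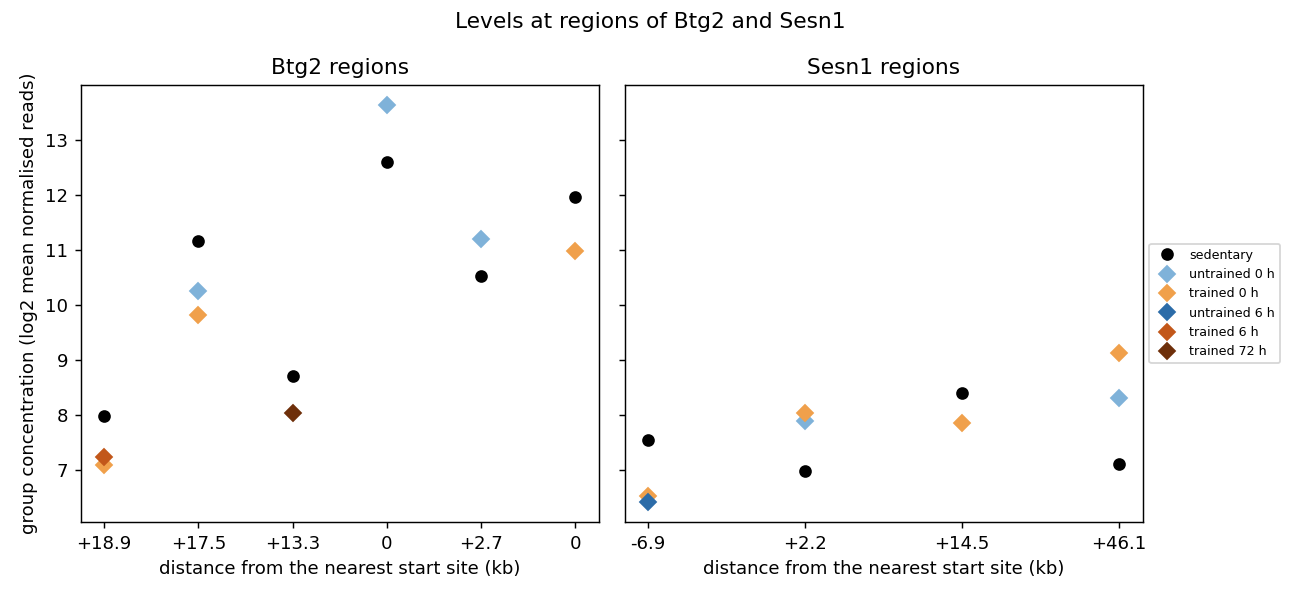
Group concentration (log2 mean normalised reads, y axis) at the regions of Btg2 (left) and Sesn1 (right) by distance from the nearest start site (kb, x axis; regions in genome order), with circles for sedentary and diamonds for exercised groups. The wide Btg2 promoter region reached 13.64 in untrained muscle at 0 h, and the farthest Sesn1 region 9.13 in trained muscle at 0 h.

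The sestrins Sesn1 and Sesn2 bind GATOR2 and so restrain mTORC1 when amino acids, leucine above all, are short. Sesn1 had 4 regions. The farthest, 46120 bp downstream inside the neighboring gene Armc2 (chr10:41809555-41810032), had a concentration of 7.12 in sedentary, 8.31 in untrained and 9.13 in trained muscle at 0 h. The gain was 1.19 in untrained and 2.01 in trained muscle, the latter 4.04-fold. An intron region 2163 bp from a start site had 6.97, 7.89 and 8.03 in these groups, gains of 0.91 and 1.06. The other 2 intron regions had losses: -1.02 in trained muscle at 0 h and -1.13 in untrained muscle at 6 h at 6898 bp upstream of the main start cluster, and -0.56 in trained muscle at 0 h at 14484 bp. Another 3 regions inside Sesn1, 4418 to 20486 bp past its upstream start, are not among the 50. They were named for Cep57l1, whose start was nearer by 547 bp. Of these, 2 had gains of 1.39 and 0.82 in untrained muscle at 6 h and 1 a loss of -0.81 in trained muscle at 0 h. Sesn2 had 1 region, 3811 bp upstream of its start site (chr4:132241626-132243542), with 12.17 in sedentary and 11.47 in trained muscle at 0 h, a loss of -0.71. No Sesn1 or Sesn2 region was listed in trained muscle at 6 h or 72 h.

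Untrained and trained muscle can be set side by side at 0 h for the 16 regions listed in both, which share their sedentary control. The Trp63 promoter was the only one of the 16 with opposite signs. Over all 17265 regions listed in both, 51 had opposite signs. The median difference of trained minus untrained muscle was 0.08, beside -0.09 over all regions, and apart from the Trp63 promoter the values ran from -0.43 at Btg2 (17452 bp) to 0.82 at Sesn1 (46120 bp). The next highest was the Gadd45g region at 121280 bp, 0.80 higher in trained muscle. At 6 h, 8 regions were listed in both states and 0 had opposite signs, as did 0 of 4778 over all regions. The median difference was -0.07, beside -0.12. Here the largest difference was -1.04, at the Gadd45g region at 218630 bp, where untrained muscle was higher.

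Motif content was searched in the central 300 bp of each region on both strands. A pair of p53 decamers (10 bases each, at most 13 bases apart, at most 2 mismatches in all) was found in 3 of the 50 regions (6.0%) and in 5.70% of all 41411 regions. These 3, at Btg2 (2671 bp) and Trp63 (151237 bp upstream and 3029 bp past the internal start), each had 2 mismatches. Over the whole length of the regions 8 of the 50 held a match, and both p53 elements printed above lie outside the central window. No whole-length share was computed over all regions, so the 8 cannot be set beside the 5.70%. The AP-1 motif was in 8 (16%) beside 13.4%, and the E-box in 42 (84.0%) beside 82.9%. The cAMP response element was in 2 (4.0%) beside 0.852%. Over all regions in untrained muscle at 0 h, this element was in 157 of the 3276 with a gain (4.79%) and in 22 of the 17868 with a loss (0.123%). Among regions of the 10 genes it was in 2 of the 17 with a gain and 0 of the 13 with a loss, and the Btg2 copy lies outside the central window of its wide region. AP-1 matches were in 37.1% of all gained regions in untrained muscle at 0 h and in 56.9% at 6 h, and at the 10 genes they were in 3 of 17 and 3 of 7 gained regions. Of all regions with a loss, 8.18% and 4.38% held one, beside 1 of 13 and 0 of 7 at the 10 genes. In trained muscle at 72 h, 2 of the 7 losses at the 10 genes held one, beside 10.1% of all losses. The matches at Btg2 (13324 bp), Sesn1 (14484 bp), Cdkn1a (28062 bp upstream) and Gadd45a (64556 bp upstream) lay in regions listed with losses only. A match of letters is not evidence that a factor was bound.

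The wider pathway was described with 4 lists, none of which holds any of the 10 genes. They hold regulators of p53 and genes of the processes it controls, and whether p53 controls each gene was not tested. A gene is counted with a gain or a loss where at least 1 of its regions had one, so it can count under both. Over 21575 annotated coding genes, 9.04% had a gain and 32.4% a loss in untrained muscle at 0 h, 12.0% and 50.3% in trained muscle at 0 h, 12.3% and 12.3% in untrained muscle at 6 h, and 4.86% and 22.6% in trained muscle at 6 h. The shares of gains below are over a list's listed regions, to be read beside 15.5%, 13.1%, 49.5% and 10.7% over all regions in the same order. Of 26 p53 regulators, 5 genes had a gain and 8 a loss in untrained muscle at 0 h, 7 and 18 in trained muscle at 0 h, 7 and 3 in untrained muscle at 6 h, and 3 and 8 in trained muscle at 6 h. The median changes over their regions were -0.80, -0.83, 0.86 and -0.77 in that order, beside -0.84, -0.86, -0.55 and -0.81 over all regions. In untrained muscle at 6 h 49.5% of all listed regions were gains, so the -0.55 lies among the smallest losses. The median gain over all regions there was 1.18 and the median loss -0.88. A median in that comparison turns on which direction holds more regions and does not give a typical change. The shares of gains were 22.0%, 13.9%, 75.0% (15 of 20 regions, with gains at 7 genes) and 10% (3 of 30 regions). The largest gain was at Usp7, a deubiquitinase of p53 and Mdm2. Its region 18181 bp upstream gained 1.91 in trained muscle at 0 h, 2.54 in untrained muscle at 6 h and 1.42 in trained muscle at 6 h. Hipk2, a kinase that phosphorylates p53, had the largest gain in untrained muscle at 0 h, 1.54. The largest loss there was -1.94 at Wwox, an oxidoreductase at a fragile site.

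Of 22 arrest and repair genes, 3 had a gain and 10 a loss in untrained muscle at 0 h. In trained muscle at 0 h these counts were 3 and 12. The median changes were -0.92 and -0.94, and the shares of gains 17.2% and 10.9%, near those of all regions. A region 205352 bp from Plk2, a polo-like kinase, had the largest gain in both, 1.76 and 2.80, and Gadd45b, the third Gadd45 gene, the largest loss in both, -1.62 and -2.08. At 6 h, 4 had a gain and 5 a loss in untrained muscle, where a region of Sfn, which encodes 14-3-3 sigma, gained 1.63, and 0 had a gain and 9 a loss in trained muscle. The shares of gains at 6 h were 28.6% and 0%, with medians of -0.82 and -1.03. Cdkn1c, which encodes the cyclin-dependent kinase inhibitor p57, had the largest loss at 6 h in both states, -1.33 and -1.47.

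Of 19 apoptosis genes, 5 had a gain and 9 a loss in untrained muscle at 0 h. The counts were 4 and 15 in trained muscle at 0 h, 5 and 3 in untrained muscle at 6 h, and 3 and 9 in trained muscle at 6 h. Median changes were -0.71, -0.78, 0.84 and -0.78 in that order, and the limit given above for medians in untrained muscle at 6 h holds here too. The shares of gains were 30% (9 of 30 regions), 20.0%, 64.7% (11 of 17 regions) and 12.5%. Bcl2l11, which encodes the proapoptotic protein Bim, had the largest gain in all 4 comparisons (1.55, 2.55, 2.36 and 1.18), at regions over 100 kb from its start sites. It also had losses, down to -1.81 in trained muscle at 6 h. Aen, an exonuclease, had the largest loss in untrained muscle at 0 h, -1.37, at a region 672 bp from a start site.

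Of 17 metabolic and autophagy genes, 5 had a gain and 6 a loss in untrained muscle at 0 h. In trained muscle at 0 h these counts were 6 and 12. The medians were -0.68 and -0.61 and the shares of gains 41.9% (13 of 31 regions) and 42.0% (21 of 50). Genes with many regions weigh more in these shares. At 6 h, 2 had a gain and 3 a loss in untrained muscle (37.5% gains, median -0.66), and 0 a gain and 5 a loss in trained muscle, where all 18 listed regions had a loss (median -0.83). Pank1, which makes coenzyme A precursors, had the largest gain in untrained muscle at 0 h and 6 h, 1.93 and 1.84, and Hk2, hexokinase 2, in trained muscle at 0 h, 2.28. Prkab1, a subunit of AMP-activated protein kinase, had the largest loss in both states at 0 h, -1.58 and -1.89. At 6 h Lpin1, a phosphatidic acid phosphatase, had the largest loss in both, -1.72 and -1.96. In trained muscle at 72 h the 4 lists held 1, 7, 2 and 1 listed regions, all with a loss, where 1.03% of all listed regions had a gain.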

How the data were processed

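ATAC-seq reads of 21 mouse samples (7 groups of 3) were trimmed (Trimmomatic 0.39), mapped to GRCm39 (Bowtie2 2.4.4, SAMtools 1.15), called into peaks (Genrich 0.6.1), compared (DiffBind 3.4.11) and annotated (ChIPseeker 1.30.3) by the authors, per the submitters' processing notes and the methods. The deposited values used here are DiffBind concentrations, a group's mean normalised reads in log2 units. The normalisation factor is not given in the sources used here. The tables hold regions under a false discovery rate of 0.05 in 5 of 6 contrasts, and 0 regions for untrained muscle at 72 h. Their fold, p-value and FDR columns are the authors' own comparisons and were not used. Depth per sample and the spread between samples are unknown, and separate mice behind the 3 samples of each group are not stated in the labels.

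Regions were named by the nearest start of a protein-coding transcript in GENCODE M39 with Python 3.11.15, pandas 2.3.3, numpy 2.4.6 and pysam 0.24.0, and the naming was tested on simulated regions. A start inside a region has distance 0, and of several such starts the one nearest the center counts. The deposited gene names were not used because only 3.54% of 19072 deposited transcript starts lay within 1 kb of a GENCODE start, and they serve as an alternative only. Genes named in the text are the 10 members, the largest gain and loss of each list per contrast, regions with opposite signs, and the 3 promoters most like a member promoter of opposite sign. Some neighboring genes are also named, where a region lay near both a neighbor and a member. Members, lists and rules were chosen with earlier results of these data known, so no test was run. Alternatives were the naming, a distance limit of 100 kb, a level minimum of 5, a pseudocount of 8 normalised reads, a change of at least 1, a width of at most 2 kb and a promoter limit of 2 kb.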

Additional observations from a re-analysis of the deposited data

How the results depend on the processing

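No leave-one-out and no error could be had because the tables hold group means, and depth limits could not be assessed. No paired analysis was possible because the tables carry no column of a single replicate. In the values below, counts and shares run over untrained 0 h, trained 0 h, untrained 6 h, trained 6 h and trained 72 h, and the cause of each shift was not tested unless the setting removes regions by itself. With the deposited gene names, 10, 19, 7, 6 and 2 regions were listed, with 2, 3, 4 and 1 gains in the first 4, and the share of gains was 20.0% in untrained and 15.8% in trained muscle at 0 h. The median change then turned to -0.86 in untrained muscle at 0 h and to 0.58 in untrained muscle at 6 h. With regions within 100 kb only, 19 regions were listed in untrained and 22 in trained muscle at 0 h, 5 in untrained and 5 in trained muscle at 6 h, and 4 in trained muscle at 72 h. Gains were then 11, 4, 1 and 0 in the first 4 comparisons, with shares of 18.2% in trained muscle at 0 h and of 20.0% and 0% in untrained and trained muscle at 6 h, and the median in untrained muscle at 6 h was -0.96. With a change of at least 1, 12, 19, 8, 4 and 0 regions remained. Of these 8 were gains in untrained muscle at 0 h and 4 in untrained muscle at 6 h, and the share was 47.4% in trained muscle at 0 h and 50.0% at 6 h. The median then became 0.073 in untrained and 0.19 in trained muscle at 6 h. With the start of the gene record alone, the median in untrained muscle at 6 h turned to 0.77. The listed values of that comparison, and of untrained muscle at 0 h, are gains and losses with none between. Their medians can therefore jump when the set of regions changes. The same setting lowered the listed promoter regions from 2 to 1 in untrained muscle at 0 h and in both states at 6 h. Without Gadd45g, a setting chosen after seeing the data, 17, 21, 6, 6 and 4 regions were listed, with 8, 3, 2 and 0 gains in the first 4, shares of 14.3% in trained muscle at 0 h and 0% at 6 h, and medians of -0.64 in untrained muscle at 0 h and -0.68 at 6 h. Counting the region over the Trp53 and Wrap53 starts as a member, also chosen after seeing the data, made 33 listed regions in trained muscle at 0 h. The level minimum, the width limit and the pseudocount left all counts within 1.5 times, and with the pseudocount none of 95 region changes turned direction (largest shift 0.12).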
